A study of Homo sapiens with 6 samples.

Results

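The AP-1 transcription factor family was represented by 9 genes, chosen by symbol as members of the FOS, JUN, JDP2 and BATF branches: FOS, FOSB, FOSL1, FOSL2, JUN, JUNB, JUND, JDP2 and BATF3. All 9 were found among 60675 gene rows, and all 9 were among the 18267 genes that passed a filter on low counts. BATF and BATF2, of the same branch as BATF3, were put in a list of partner genes instead and did not pass it. The values come from total RNA sequencing of HEK293, an established cell line of human embryonic kidney origin, in 3 libraries labelled MOCS2 RNAi knockdown and 3 labelled control (genotype wild type). Both groups were grown in high-glucose medium with fetal bovine serum and the selection drug Geneticin, so the controls carry that exposure too. The labels name neither the RNAi construct nor the control construct, and do not say whether the lines were clones or whether replicates were separate cultures. The p-values therefore cover only how far these 6 libraries vary, and that variation may be technical. MOCS2 encodes subunits of an enzyme that helps make the molybdenum cofactor, and the study asked about sulfur amino acids and processing of the amyloid precursor protein (APP).

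AP-1 is a dimer of basic leucine zipper proteins that binds the palindromic site TGANTCA. JUN proteins can pair with each other or with a FOS protein, while FOS proteins need a partner to bind DNA. In cultured cells FOS and FOSB are early genes, switched on for a short time by serum, growth factors and stress through MAP kinases and serum response factor. FOSL1 and FOSL2 follow later and build up under sustained kinase signalling, JUND is expressed steadily in many cells, and JDP2 and BATF3 are short proteins that can dampen AP-1 activity.

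The promoters of 7 of the 9 members were found in RefSeq's table (GRCh38.p14), in 9 windows of 250 bases before to 50 after a start, with 3 windows for JDP2. FOSL1 and BATF3 had no window there. The 250 bases before the start are shown for FOS and FOSL2, the members whose groups did not overlap, and for JUN and JUND, the members with the highest levels. Capitals mark matches to TGACGTCA (the cAMP response element), TGACNTCA, the core TGACGT, or TATAAA, on either strand.
FOS: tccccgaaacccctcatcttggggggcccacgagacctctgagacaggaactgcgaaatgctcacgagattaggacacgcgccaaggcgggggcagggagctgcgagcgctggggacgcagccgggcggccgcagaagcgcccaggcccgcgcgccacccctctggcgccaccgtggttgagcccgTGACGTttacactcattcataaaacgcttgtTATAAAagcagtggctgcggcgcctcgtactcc
FOSL2: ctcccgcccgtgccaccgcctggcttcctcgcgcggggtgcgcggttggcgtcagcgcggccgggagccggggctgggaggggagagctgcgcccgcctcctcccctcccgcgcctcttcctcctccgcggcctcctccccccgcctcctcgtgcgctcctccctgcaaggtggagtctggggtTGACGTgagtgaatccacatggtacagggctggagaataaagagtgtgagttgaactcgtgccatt
JUN: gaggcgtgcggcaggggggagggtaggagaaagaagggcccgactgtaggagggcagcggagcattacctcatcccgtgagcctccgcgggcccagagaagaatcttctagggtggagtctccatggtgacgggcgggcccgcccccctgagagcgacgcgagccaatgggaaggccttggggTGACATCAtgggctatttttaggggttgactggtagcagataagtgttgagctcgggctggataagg
JUND: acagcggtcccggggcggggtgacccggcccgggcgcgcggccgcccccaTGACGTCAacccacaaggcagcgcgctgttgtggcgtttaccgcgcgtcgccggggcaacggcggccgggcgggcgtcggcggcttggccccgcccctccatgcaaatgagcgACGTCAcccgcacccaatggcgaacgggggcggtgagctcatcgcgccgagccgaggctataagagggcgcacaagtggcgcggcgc
These stretches lie at chr14:75278578-75278827 (plus strand), chr2:28392608-28392857 (plus strand), chr1:58784048-58784297 (minus strand) and chr19:18281623-18281872 (minus strand). The start is RefSeq's, which can differ from the GENCODE gene bounds given for each gene: by those bounds the FOSL2 and JUN stretches lie within the gene, as does the last part of the FOS stretch. The AP-1 site TGANTCA was matched in 1 of the 7 genes: FOSL2 holds it as TGACTCA 5 to 11 bases after the start, outside the stretch shown, and 7.71% of 35116 RefSeq promoter windows hold the motif. TGACGTCA was matched in JUND, from -200 to -193 relative to the start, and in 1.85% of all windows. The JUN window holds TGACATCA from -67 to -60, a match to TGACNTCA, which 7.72% of all windows hold. That motif contains TGACGTCA, so JUND matches it too. The core TGACGT, on either strand, was matched in FOS (from -64), FOSB (from -60), FOSL2 (from -66), JDP2 (from -97) and JUND, and in 7.98% of all windows. The JUND matches include those inside its TGACGTCA. TGACNTCA and TGACGT were added after the sequences were seen. TATAAA was matched in FOS, FOSB and JUNB, at -33, -30 and -31, and in 11.5% of all windows. The CArG box, the element bound by serum response factor, was matched in 0 of the 7 genes and in 1.29% of all windows. Only 250 bases before to 50 after the start were searched, so a site further out would be missed. The 0 therefore does not say that these genes lack a CArG box. A match is a string of letters and not a measured binding site.

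Reads assigned to genes numbered 17958632 to 22171106 per library. MOCS2, the targeted gene, stood at 69.8, 58.9 and 59.9 CPM (reads scaled to a common library size with TMM factors) in knockdown 1, 2 and 3, against 57.8, 66.6 and 65.6 CPM in control 1, 2 and 3. The log2 fold change of MOCS2 was -0.01, with a 95% interval of -0.33 to 0.31 and an adjusted p of 0.976 in edgeR. MOCS2 RNA therefore goes against the label, and each direction given here refers to libraries named by that label. All 8 markers chosen for HEK293 were above 1 CPM on average, as were 2 of 6 fibroblast, 1 of 4 leukocyte, 1 of 3 endothelial and 0 of 2 hepatocyte markers. The fibroblast markers summed to 8.29 to 12.5 CPM in the libraries labelled knockdown and 15.0 to 23.6 CPM in the controls, with THY1 at 0.151 CPM or below throughout. Of these, LUM was at 1.12 to 2.37 CPM in the libraries labelled knockdown and 7.24 to 16.7 CPM in the controls, while COL1A1 overlapped, at 4.73 to 9.81 CPM in the libraries labelled knockdown and 5.24 to 6.47 CPM in the controls. The leukocyte markers summed to 2.00 to 4.57 CPM in the libraries labelled knockdown and 1.12 to 2.47 CPM in the controls, with CD3E at 0 in 4 of 6 libraries. The endothelial markers summed to 1.27 to 2.76 CPM in the libraries labelled knockdown and 2.79 to 3.47 CPM in the controls, with CDH5 at 0 in 3 of 6 libraries. KDR was at 0.475 to 1.49 CPM in the libraries labelled knockdown and 1.71 to 2.96 CPM in the controls, while PECAM1 overlapped between the groups. Their part in the results was not tested. The libraries labelled knockdown differed among themselves more than the controls, with a median SD of log2 CPM over all genes of 0.31 in the libraries labelled knockdown and 0.16 in the controls. The share of reads that fell outside annotated genes (of those inside, outside or ambiguous) was 22.3%, 37.5% and 21.5% in knockdown 1, 2 and 3, against 23.6% to 25.0% in the controls. The part of that excess in knockdown 2 in the results was not tested. In bulk RNA, fewer cells of a type and less RNA per cell cannot be told apart.

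Most AP-1 members stood higher in knockdown 1 and knockdown 2 than in every control, while knockdown 3 lay among the controls for 5 of the 9. The ratios of group means were larger in the FOS branch than in the JUN branch: mean levels in the libraries labelled knockdown were 3.65 times the control mean for FOS, 3.64 times for FOSL1, 2.73 times for FOSL2 and 1.98 times for FOSB, against 1.35, 1.44 and 1.65 times for JUN, JUNB and JUND. For FOSB this order depended on single libraries. Without control 2 its log2 fold change was 0.55, against 0.59 for JUND. In knockdown 3 FOSB was at 0.82 times the control mean, against 1.12, 1.06 and 0.99 times for JUN, JUNB and JUND. No test of the difference between the branches was made. Of the 9 members, 8 had a positive log2 fold change, 5 were higher at an unadjusted edgeR p under 0.05 and 0 were lower, while 0 passed at an adjusted p under 0.05. Among all 18267 genes tested, 9.93% were higher and 10.6% lower at the unadjusted threshold, and 0% passed after adjustment by edgeR. The median log2 fold change was 0.72 over the 9 members and 0.02 over all genes tested.

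**Figure D1:**
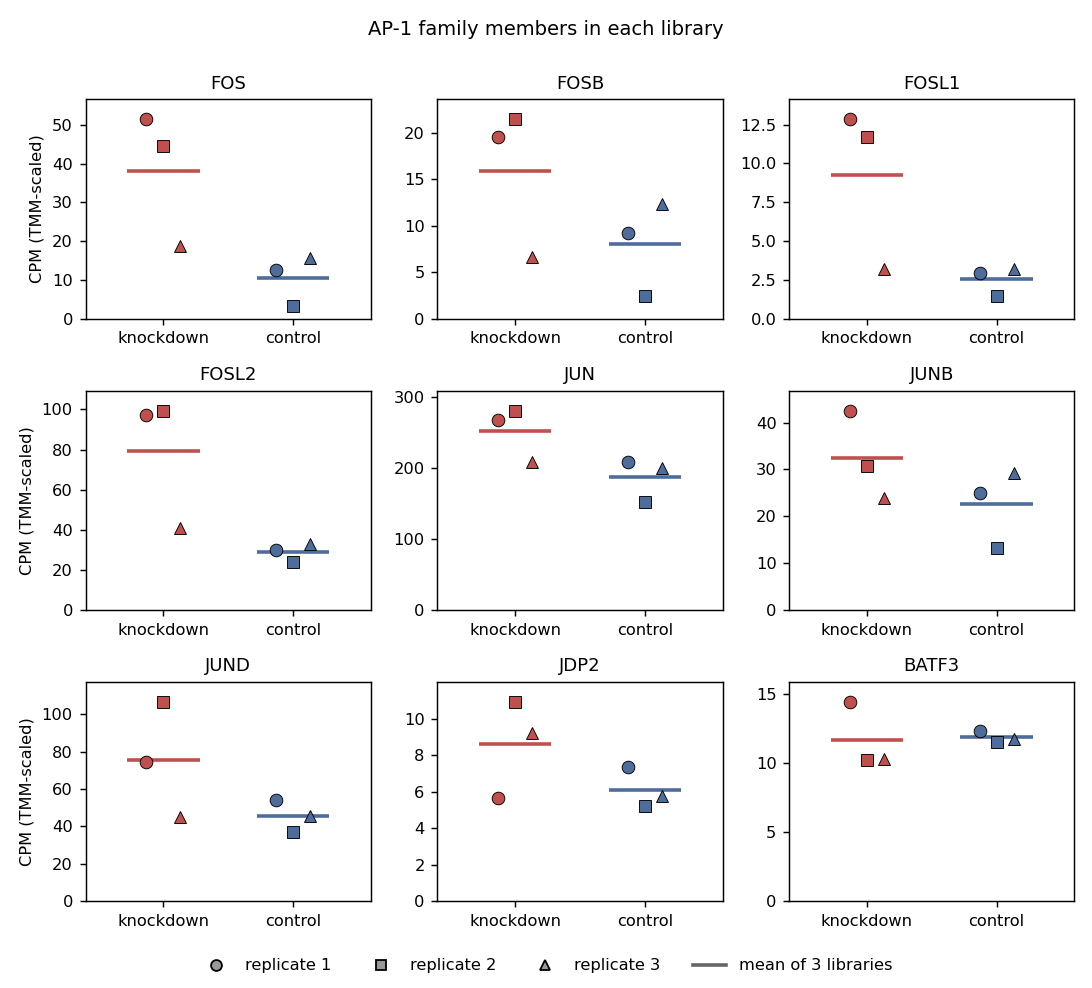
Level of each AP-1 member in CPM (vertical axes, each starting at 0) in the 3 libraries labelled knockdown and the 3 controls; symbols mark the replicate and horizontal bars the mean of 3 libraries. Knockdown 1 and 2 stand above all controls for both FOS and FOSL2, and control 2 is the lowest control in all 9 panels.

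FOS (ENSG00000170345, chromosome 14, 75278774 to 75282230, plus strand, GRCh38), the founding early gene of the family, stood at 51.4, 44.4 and 18.7 CPM in knockdown 1, 2 and 3, against 12.6, 3.14 and 15.6 CPM in control 1, 2 and 3. The groups did not overlap, but knockdown 3 was only just above control 3, and the controls themselves spanned a 4.96-fold range with control 2 lowest. The log2 fold change was 1.87 (standard error 0.50, 95% interval 0.76 to 2.98, edgeR adjusted p = 0.107). Of the 9 members, the groups did not overlap in FOS and FOSL2, both higher, beside 12.5% of all genes tested that were higher without overlap.

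FOSB (ENSG00000125740, chromosome 19, 45467995 to 45475179, plus strand), another early gene, stood at 19.5, 21.4 and 6.60 CPM in knockdown 1, 2 and 3, against 9.26, 2.42 and 12.3 CPM in control 1, 2 and 3. Knockdown 3 lay inside the range of the controls, so the groups overlapped. Its log2 fold change of 0.99 had a standard error of 0.53 and a 95% interval of -0.19 to 2.16 (edgeR adjusted p = 0.316). It was 0.55 without control 2. FOSB overlaps ERCC1, a DNA repair gene on the other strand at 76.4 CPM in the libraries labelled knockdown and 57.0 CPM in the controls. Whether HTSeq counted by strand is not known from the labels, so the FOSB counts are uncertain, and its long and short protein forms cannot be separated in counts per gene.

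FOSL1 (ENSG00000175592, chromosome 11, 65892049 to 65900573, minus strand), which encodes FRA1, stood at 12.8, 11.7 and 3.22 CPM in knockdown 1, 2 and 3, against 2.92, 1.48 and 3.22 CPM in control 1, 2 and 3. Knockdown 3 and control 3, with 61 and 64 reads, were level, so the groups overlapped. FOSL1 had a log2 fold change of 1.86 (standard error 0.48, 95% interval 0.80 to 2.92, edgeR adjusted p = 0.102).

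FOSL2 (ENSG00000075426, chromosome 2, 28392448 to 28417312, plus strand), which encodes FRA2, stood at 97.5, 99.3 and 40.8 CPM in knockdown 1, 2 and 3, against 29.98, 23.9 and 33.0 CPM in control 1, 2 and 3. The groups did not overlap, and the controls were within 1.38-fold of each other, a narrower range than for FOS. FOSL2 overlaps the antisense gene FLJ31356, at 0.437 CPM in the libraries labelled knockdown and 0.329 CPM in the controls. It also overlaps AC104695.3, an intronic gene on the same strand, at 0.290 CPM in the libraries labelled knockdown and 0.140 CPM in the controls. Both were low beside FOSL2, but strand is uncertain here as well. Among the 9 members FOSL2 had the smallest p (log2 fold change 1.45, standard error 0.30, 95% interval 0.80 to 2.10, edgeR adjusted p = 0.0767), ranked 120 of 18267 genes by p.

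JUN (ENSG00000177606, chromosome 1, 58780788 to 58784327, minus strand), the main partner of FOS proteins, stood at 267, 281 and 208.7 CPM in knockdown 1, 2 and 3, against 209.1, 152 and 199.7 CPM in control 1, 2 and 3. Knockdown 3 was just below control 1, so the groups overlapped by that pair alone. The log2 fold change was 0.43 (standard error 0.18, 95% interval 0.04 to 0.83, edgeR adjusted p = 0.212).

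JUNB (ENSG00000171223, chromosome 19, 12791496 to 12793315, plus strand), a JUN relative that can oppose JUN at some promoters, stood at 42.5, 30.7 and 24.0 CPM in knockdown 1, 2 and 3, against 25.0, 13.3 and 29.3 CPM in control 1, 2 and 3. Knockdown 2 was barely above control 3, and knockdown 3 was inside the control range. Its log2 fold change of 0.52 had a 95% interval of -0.12 to 1.16 (edgeR adjusted p = 0.332). JUNB overlaps HOOK2 on the other strand, at 15.7 CPM in the libraries labelled knockdown and 16.3 CPM in the controls, so its counts carry the same uncertainty over strand.

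JUND (ENSG00000130522, chromosome 19, 18279760 to 18281622, minus strand), the steadily expressed JUN relative, stood at 74.4, 106.4 and 45.0 CPM in knockdown 1, 2 and 3, against 54.2, 37.1 and 45.4 CPM in control 1, 2 and 3. Knockdown 2 was the highest library and knockdown 3 was level with control 3. The log2 fold change was 0.72 (standard error 0.27, 95% interval 0.12 to 1.33, edgeR adjusted p = 0.178). It was 0.38 without knockdown 2, the library with the large share of reads outside genes.

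JDP2 and BATF3 are the small members without a strong activation domain, and their libraries stood in another order. JDP2 (ENSG00000140044, chromosome 14, 75427716 to 75474111, plus strand), a repressor that pairs with JUN, stood at 5.65, 10.9 and 9.23 CPM in knockdown 1, 2 and 3, against 7.37, 5.21 and 5.74 CPM in control 1, 2 and 3. Here knockdown 1 lay among the controls, and knockdown 2 and 3 stood above them. The log2 fold change of JDP2 was 0.49 (95% interval -0.12 to 1.11, edgeR adjusted p = 0.341). It was 0.28 without knockdown 2. JDP2 overlaps the antisense gene AF111167.2, at 1.47 CPM in the libraries labelled knockdown and 0.845 CPM in the controls, so strand is uncertain here too. JDP2 lies 145 kb from FOS and 48.3 kb from BATF on chromosome 14.

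BATF3 (ENSG00000123685, chromosome 1, 212686418 to 212699985, minus strand), known in mice for its role in dendritic cell development, stood at 14.4, 10.3 and 10.3 CPM in knockdown 1, 2 and 3, against 12.4, 11.5 and 11.8 CPM in control 1, 2 and 3. Knockdown 1 stood above the 3 controls, and knockdown 2 and 3 below them. Its log2 fold change of -0.03 had a 95% interval of -0.48 to 0.42 (edgeR adjusted p = 0.948), an interval that leaves out changes of the size estimated for FOS, FOSL1 and FOSL2.

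Some positions within the groups recurred across members. Control 2 was the lowest control for 9 of 9 members, beside 35.9% of all genes tested, while control 1 was lowest in 29.9% of genes and control 3 in 34.2%, and in 0 members. Knockdown 1 stood above all controls for 8 members (all but JDP2), beside 37.6% of all genes tested, and below them for 0, beside 38.5%. Knockdown 2 stood above all controls for 8 members (all but BATF3), beside 38.4% of all genes tested, and below them for BATF3, beside 39.0%. Knockdown 1 and knockdown 2 both stood above knockdown 3 and above all 3 controls for 7 members, namely the FOS and JUN branches, beside 18.4% of all genes tested. Knockdown 3 was above all controls for 3 members (FOS, FOSL2 and JDP2), beside 30.6% of all genes tested, below them for BATF3, beside 31.7%, and inside the control range for 5. Members share each library, so these counts describe single libraries and are not replicates of the condition.

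Whether members passed the adjusted threshold depended on knockdown 3 and on the tool. Over the members, knockdown 3 was the knockdown library nearest the controls. Its median log2 difference from the control mean was 0.17, against 0.99 and 1.24 in knockdown 1 and 2. Leaving it out therefore widens the difference for most members by the choice itself, and is no independent support. With any other library left out, 0 members were called. Without knockdown 3, edgeR called 4 of 9 members higher and 0 lower after adjustment. Beside these, 6.46% of 19062 genes were called higher, 8.30% lower and 14.8% in either direction. FOSL2 then had a log2 fold change of 1.76 (adjusted p = 0.000364), FOSL1 of 2.27 (adjusted p = 0.00185), JUND of 0.98 (adjusted p = 0.00975) and FOS of 2.19 (adjusted p = 0.0100). JUN, at 0.55, and FOSB, at 1.35, stayed above the threshold (adjusted p = 0.0604 and 0.0716 in these edgeR fits). With all 6 libraries, DESeq2 called FOSL2 (adjusted p = 0.000158) and FOSL1 (adjusted p = 0.00183) higher and 0 members lower, beside 3.39% of 16493 genes called higher, 3.55% lower and 6.94% in either direction. In the same comparison limma voom called 0 members and 0% of genes at an adjusted p under 0.05. At voom's unadjusted p under 0.05 there were 5 members, but the share of all genes at that threshold was not computed for voom.

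**Figure D2:**
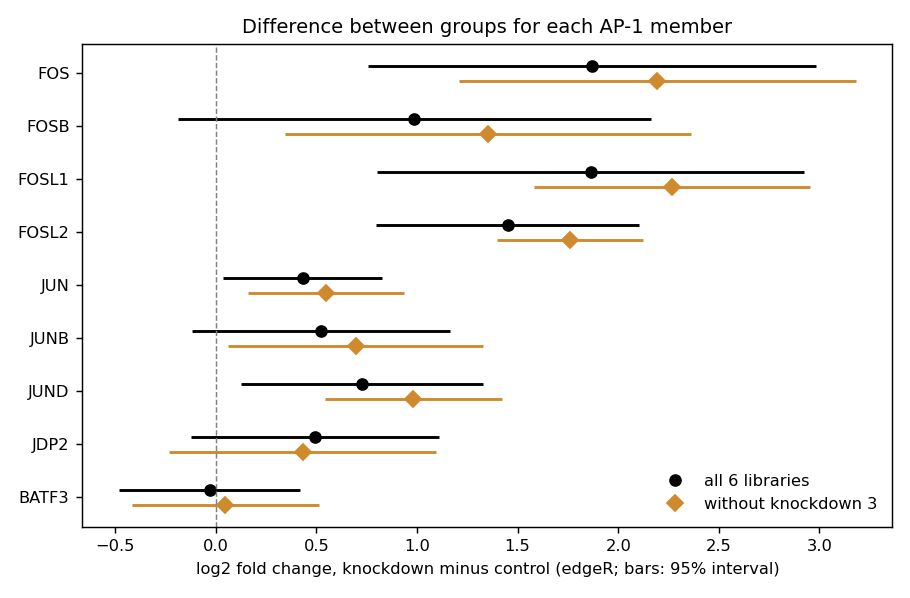
Log2 fold change of each AP-1 member, libraries labelled knockdown minus controls, with approximate 95% intervals derived from the edgeR F test, for all 6 libraries (circles) and without knockdown 3 (diamonds). With all 6 libraries the intervals of FOS, FOSL1, FOSL2, JUN and JUND lie above 0, and that of BATF3 spans -0.48 to 0.42.

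Levels were compared between members per length, as FPKM (CPM divided by the exon length in kilobases). JUN was the most abundant member in both groups, at 71.2 ± 10.8 FPKM in the libraries labelled knockdown and 52.8 ± 8.65 FPKM in the controls (SD, n = 3 each). JUND followed at 40.4 ± 16.5 FPKM in the libraries labelled knockdown and 24.4 ± 4.58 FPKM in the controls, and JUNB at 17.8 ± 5.17 FPKM in the libraries labelled knockdown and 12.4 ± 4.57 FPKM in the controls. In both groups JUN and JUND were separated from the next member by ranges that did not overlap. Below JUNB the order was FOS (11.8 FPKM), FOSL2 (11.1), FOSL1 (4.90), BATF3 (4.30), FOSB (2.85) and JDP2 (1.38 FPKM) in the libraries labelled knockdown, where every neighbouring pair from JUNB down overlapped. In the controls it was BATF3 (4.38 FPKM), FOSL2 (4.05), FOS (3.23), FOSB (1.44), FOSL1 (1.35) and JDP2 (0.979 FPKM), where JUNB stood clear of BATF3 and the pairs below overlapped.

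The FOS branch thus held a larger part of the family's transcripts in knockdown 1 and 2. FOS, FOSB, FOSL1 and FOSL2 together made up 21.5%, 19.2% and 12.4% of the summed FPKM of the 9 members in knockdown 1, 2 and 3, against 9.50%, 6.86% and 11.6% of it in control 1, 2 and 3. The groups did not overlap, with knockdown 3 close to control 3. JUN, JUNB and JUND made up 75.1%, 78.0% and 83.1% of the sum in knockdown 1, 2 and 3, against 85.7%, 86.8% and 83.9% of it in control 1, 2 and 3. The whole family summed to 185, 196 and 115.9 FPKM in knockdown 1, 2 and 3, against 118.9, 80.8 and 115.5 FPKM in control 1, 2 and 3, so knockdown 3 lay between control 3 and control 1. These shares are descriptions without a test, and they depend on the exon lengths used.

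**Figure D3:**
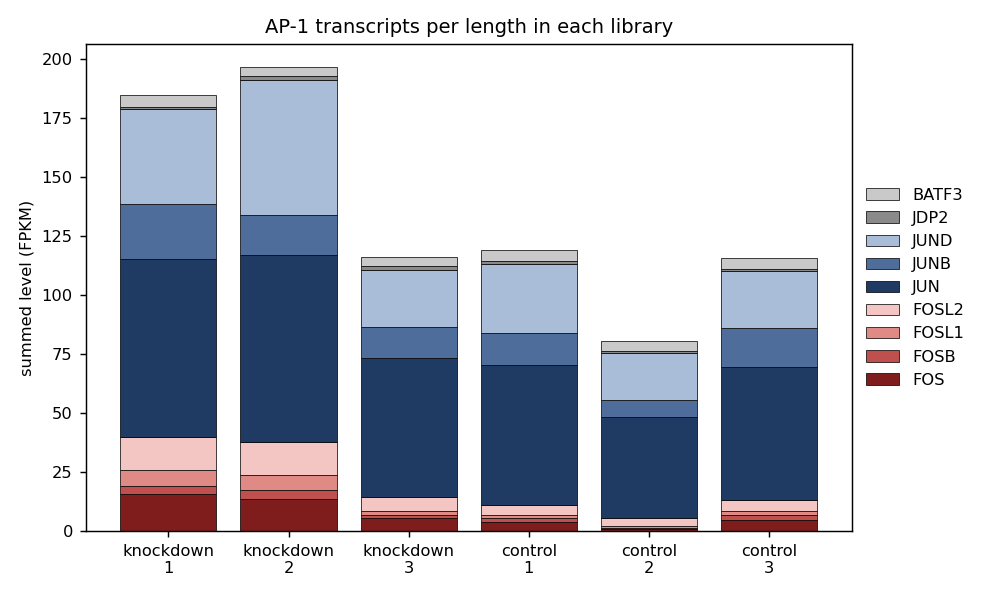
Summed FPKM of the 9 AP-1 members in each library, stacked by member with the FOS branch at the bottom (reds), the JUN branch above it (blues) and JDP2 and BATF3 on top (greys). Knockdown 1 and 2 reach 185 and 196 FPKM, and knockdown 3 at 115.9 FPKM is level with control 3 at 115.5 FPKM.

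Other genes of the pathway were taken from lists chosen with earlier results of these data known. In every list 0 members passed edgeR's adjusted threshold over all genes, so the counts that follow are at an unadjusted p under 0.05, which 20.5% of all genes tested met. A low gene that passed the filter on low counts only through the group where it is high had to differ, so these counts and medians are descriptions. At an adjusted p under 0.05, DESeq2 called 0 bZIP partners, and 1 upstream gene higher and 2 lower. It called 2 turnover genes, 4 targets and 3 early genes higher. Beside these, DESeq2 called 3.39% of 16493 genes higher and 3.55% lower. By limma voom 0 genes were called at an adjusted p under 0.05. Of 11 other bZIP partners, 9 passed the filter on low counts, and 2 were higher and 0 lower (median log2 fold change 0.38). MAFF, a small MAF protein, stood at 23.1, 11.5 and 2.90 CPM in knockdown 1, 2 and 3, against 3.51, 1.48 and 3.62 CPM in control 1, 2 and 3 (log2 fold change 2.12, edgeR adjusted p = 0.113). ATF3, a stress-induced partner of JUN, stood at 136.9, 178.5 and 46.1 CPM in knockdown 1, 2 and 3, against 55.5, 37.4 and 51.7 CPM in control 1, 2 and 3 (log2 fold change 1.32, edgeR adjusted p = 0.116). In both genes knockdown 3 lay inside the control range, as for FOSL1. BATF had reads in 1 of 6 libraries, at 0.0531 CPM in knockdown 2.

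Among 18 kinases and transcription factors upstream of FOS and JUN, all 18 passed the filter, and 4 were higher and 2 lower (median log2 fold change 0.06). SRF, the serum response factor that drives FOS, stood at 94.9, 93.1 and 73.0 CPM in knockdown 1, 2 and 3, against 59.2, 52.9 and 59.7 CPM in control 1, 2 and 3, without overlap (log2 fold change 0.60, edgeR adjusted p = 0.101). Its actin-regulated coactivator MRTFA stood at 47.7, 39.4 and 49.5 CPM in knockdown 1, 2 and 3, against 35.1, 27.6 and 30.9 CPM in control 1, 2 and 3 (log2 fold change 0.55, edgeR adjusted p = 0.120). RPS6KA3, a kinase downstream of ERK, had a log2 fold change of 0.53 (edgeR adjusted p = 0.137). MAPK3, which encodes ERK1, stood at 18.8, 28.2 and 34.8 CPM in knockdown 1, 2 and 3, against 39.3, 43.2 and 53.4 CPM in control 1, 2 and 3, lower without overlap (log2 fold change -0.73, edgeR adjusted p = 0.125). Of all genes tested, 14.3% were lower without overlap. MAPK10, a JNK gene mainly of neurons, was at 0.283 to 0.686 CPM in the libraries labelled knockdown and 0.944 to 2.22 CPM in the controls. With 5, 8 and 13 reads in knockdown 1, 2 and 3, against 21, 45 and 44 reads in control 1, 2 and 3, it is such a low gene, and its log2 fold change of -1.87 (edgeR adjusted p = 0.0979) is given as a description. The more abundant JNK genes MAPK8 and MAPK9 had log2 fold changes of -0.06 and 0.06.

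Of 11 genes of FOS and JUN turnover, all passed the filter, and 2 were higher and 1 lower (median log2 fold change 0.13). ZFP36L2 and ZFP36L1, RNA-binding proteins that speed the decay of AU-rich messages, had log2 fold changes of 0.74 (edgeR adjusted p = 0.0871) and 0.73 (edgeR adjusted p = 0.112). ZFP36L2 stood at 36.4, 31.5 and 32.1 CPM in knockdown 1, 2 and 3, against 22.5, 17.1 and 20.04 CPM in control 1, 2 and 3, and here knockdown 3 was level with knockdown 2. DET1, an adaptor of the COP1 ligase that marks JUN for breakdown, had a log2 fold change of -0.50 (edgeR adjusted p = 0.228), while COP1 itself had one of -0.03 and FBXW7, another JUN ligase, one of 0.18.

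Of 27 textbook AP-1 target genes, 21 passed the filter, and 13 were higher and 1 lower (median log2 fold change 0.67). The 6 that did not pass were MMP1, MMP3, MMP9, IL6, SPP1 and IVL. MMP10, a secreted metalloproteinase, stood at 14.6, 10.0 and 0.422 CPM in knockdown 1, 2 and 3, against 0.584, 0.135 and 1.06 CPM in control 1, 2 and 3 (log2 fold change 3.83, edgeR adjusted p = 0.102). SERPINB2, an inhibitor of plasminogen activators, had the largest log2 fold change of the list at 5.55 (edgeR adjusted p = 0.0767), with 54.2, 11.5 and 1.48 CPM in knockdown 1, 2 and 3, against 0.494, 0.0898 and 0.856 CPM in control 1, 2 and 3. With 11, 2 and 17 reads in control 1, 2 and 3, SERPINB2 is also a low gene, and its fold change is given as a description. CD44, a hyaluronan receptor, stood at 116.5, 66.7 and 35.0 CPM in knockdown 1, 2 and 3, against 18.4, 9.61 and 39.5 CPM in control 1, 2 and 3 (log2 fold change 1.69, edgeR adjusted p = 0.118). DUSP1, a phosphatase that switches MAP kinases off, had a log2 fold change of 0.92 (edgeR adjusted p = 0.110), and VIM, the filament protein vimentin, one of 0.67 (edgeR adjusted p = 0.120). TIMP1 and EZR gave small values, at 0.04 and 0.16 on the log2 scale. Of the 21, 17 had a positive and 4 a negative log2 fold change. The negative ones were HMOX1 (-0.73), GJA1 (-0.50), MT2A (-0.40) and CCND1 (-0.00126). GJA1, the 1 lower gene, stood at 51.6, 55.2 and 73.1 CPM in knockdown 1, 2 and 3. In control 1, 2 and 3 it stood at 79.2, 83.7 and 92.5 CPM, without overlap (edgeR adjusted p = 0.141), beside 14.3% of all genes tested that were lower without overlap. Without knockdown 3, 11 of these 21, low genes such as SERPINB2 and MMP10 included, passed the adjusted edgeR threshold higher and 1 lower, beside 6.46% and 8.30% of 19062 genes.

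Of 8 other early genes, 7 passed the filter, and 5 were higher and 0 lower (median log2 fold change 0.74). EGR1, a zinc finger factor induced with FOS, stood at 88.5, 62.1 and 31.1 CPM in knockdown 1, 2 and 3, against 14.4, 4.81 and 19.3 CPM in control 1, 2 and 3 (log2 fold change 2.24, edgeR adjusted p = 0.0776). The order of its libraries was that of FOS, with control 2 lowest and knockdown 3 next above control 3. EGR2 and EGR3 had log2 fold changes of 1.68 and 1.65, and NR4A1 and IER3 of 0.66 and 0.74, with edgeR adjusted p from 0.0979 to 0.226. EGR4, at 0.899 CPM or below in every library, did not pass the filter.

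**Figure D4:**
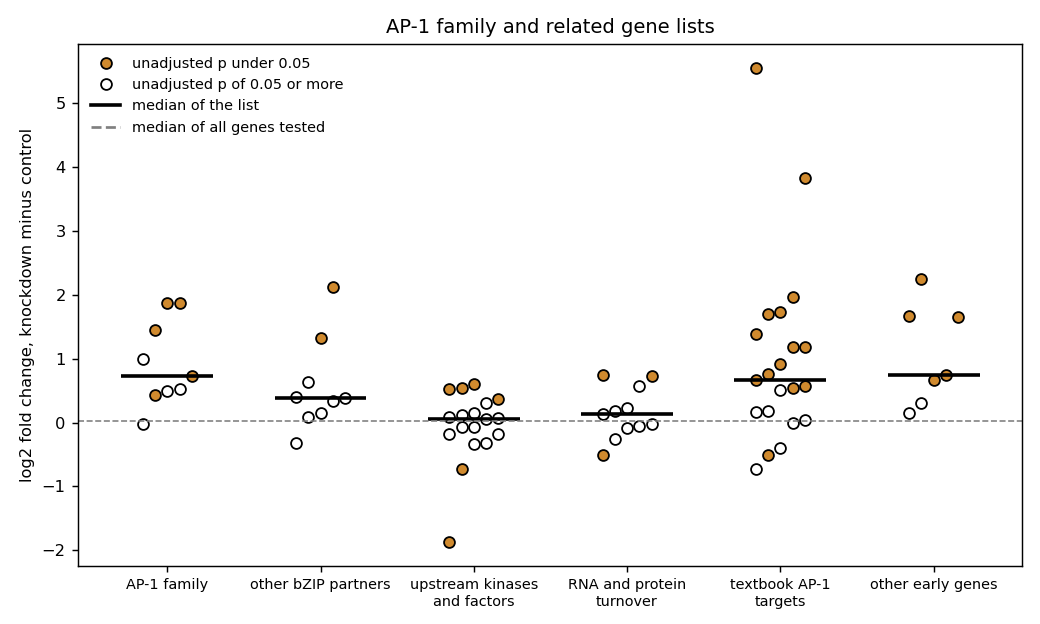
Log2 fold change (libraries labelled knockdown minus controls) of the AP-1 members and of tested genes in 5 related lists; filled points have an unadjusted p under 0.05, bars are list medians and the dashed line is the median of all genes tested at 0.02. The medians of the AP-1 members, textbook targets and other early genes lie at 0.72, 0.67 and 0.74, and that of the upstream list at 0.06.

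The genes whose pattern over the 6 libraries was most like the mean of the 9 members were GEM, PHF21B, DUSP1, AOC3 and SPRY4, among 11285 other protein-coding genes with a mean of at least 5 CPM. Likeness was the root-mean-square difference between centred log2 CPM values, which was 0.10 log2 units for GEM, a small GTP-binding protein, 0.11 for PHF21B, a PHD finger protein, and for DUSP1, which is also in the target list, 0.12 for AOC3, an amine oxidase, and 0.13 for SPRY4, an inhibitor of receptor kinase signalling. The single members differed from their own mean pattern by more, from 0.26 for JUND and JUNB to 0.72 for FOS. That gap follows from the choice, since the 5 genes are the smallest values among 11285 and the members were not picked by likeness. GEM stood at 15.6, 19.6 and 9.44 CPM in knockdown 1, 2 and 3, against 8.99, 4.89 and 10.3 CPM in control 1, 2 and 3, and so repeated the low control 2 and the low knockdown 3. Sharing this order across 6 libraries is a description, since all genes share the same libraries.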

How the data were processed

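Total RNA libraries were made with a stranded kit after ribosomal RNA removal, per the labels' protocols. The authors deposited raw read counts per Ensembl gene for 6 libraries, made with bcl2fastq 2.18, TopHat2 2.0.13 and HTSeq on hg38, per the submitters' processing notes. The sources used here do not give the HTSeq version, annotation release or strand setting. The 5 special HTSeq rows were left out of library sizes and tests. Symbols, positions and exon lengths come from GENCODE release 29 (GRCh38), which matched 57055 of 60675 identifiers, and 3 older symbols (MKL1, MKL2, RFWD2) were matched through RefSeq synonyms.

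The main test was that of edgeR 4.0.16 under R 4.3.3 (TMM, filterByExpr, quasi-likelihood F test, two-sided, Benjamini-Hochberg over 18267 genes, threshold 0.05). The fit was checked on simulated counts that had the same spread in both groups, unlike these libraries. That check therefore does not show how the test performs on these data. The standard error of each gene was derived from its edgeR log2 fold change and F statistic. The 95% intervals were built from that standard error, on 10.6 degrees of freedom in the main fit, and are approximate. CPM and FPKM were computed from the deposited counts, with a prior count of 2 on the log2 scale. No pair of libraries within a group matched within counting noise (the smallest chi-square per degree of freedom was 11.4). Alternatives were DESeq2 1.42.0, limma 3.58.1 voom, other scalings and filters, a replicate block and leaving out each library. All 9 members are described, and from each list up to 5 genes with the smallest unadjusted p under 0.05, plus the 5 protein-coding genes nearest the members' mean profile. Further genes (BATF, MAPK8, MAPK9, COP1, FBXW7, TIMP1, EZR, GJA1, HMOX1, MT2A, CCND1, EGR4 and those below the filter) were named after their values were seen. Members and lists were chosen with earlier results of these data known. A planned comparison of the proteins was not made.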

Additional observations from a re-analysis of the deposited data

Results flagged for a closer look

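Reads outside annotated genes, which the comparison does not use, were 37.5% of those inside, outside or ambiguous in knockdown 2, against 25.0% in the highest control. Knockdown 2 had the highest value of the 6 libraries for FOSB, FOSL2, JUN, JUND and JDP2. The part of that share in these values was not tested.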

How the results depend on the processing

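The log2 fold changes of FOS, FOSB, FOSL1, FOSL2, JUN, JUNB, JUND and JDP2 were positive under all 13 alternatives run, from 1.43 to 2.26 for FOS, 1.55 to 2.27 for FOSL1, 1.24 to 1.76 for FOSL2, 0.55 to 1.43 for FOSB, 0.30 to 0.55 for JUN, 0.25 to 0.74 for JUNB, 0.38 to 0.98 for JUND and 0.28 to 0.72 for JDP2. BATF3 turned positive without knockdown 2 (0.0452) and without knockdown 3 (0.0478), and ran down to -0.21 without knockdown 1. MOCS2 turned positive with upper-quartile factors (0.00949) and without control 2 (0.0242), control 3 (0.00461), knockdown 2 (0.0267) or knockdown 3 (0.0192), and was lowest without knockdown 1 (-0.0941). The number of members called higher, 0 in edgeR, was 2 with DESeq2, 5 with no filter (FOSB among them), and 0 to 4 when 1 library was left out, the 4 without knockdown 3. The number higher at an unadjusted p under 0.05, 5 in edgeR, was 3 without control 2 or knockdown 2, 4 without knockdown 1, and 7 without knockdown 3 or with no filter. The share of all genes at that threshold was computed only for the main fit, at 9.93% higher. The counts of members from the other fits therefore have no share to be read against. Over all genes, adjusted calls were 559 higher (3.39%) and 586 lower (3.55%) with DESeq2. With no filter they were 694 higher and 880 lower, without a share computed. Leaving out 1 library gave 0 to 1232 higher and 0 to 1583 lower. The most came without knockdown 3 (6.46% higher and 8.30% lower), and 0 higher and 4 lower came without control 3. The median over the members ran from 0.55 to 0.98. With the length of the longest transcript, the share of FOS was 6.95% of the summed FPKM, against 4.87% with the exon union. TGACGTCA was matched in 0 genes within 100 bases of the start. Why these values moved was not tested. With the replicate number as a block, edgeR called 6 genes higher and 13 lower and 0 members. Deviations of same-numbered libraries correlated at 0.11, -0.17 and -0.12 across 18267 genes, and those of differently numbered libraries at -0.08 to 0.19. With 3 libraries per group, these values cannot tell whether same-numbered libraries shared a batch, and the labels do not say. Depth limits what can be said of FOSL1, at 33 to 227 reads per library, and of list members under 1 CPM.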
